A study of Mus musculus with 3 samples.

Results

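Among the epithelial cells of embryonic mouse back skin, the cells described here carried at least 1 Sox9 transcript and no Shh transcript, and fell into 2 classes by how much placode transcript they held. They were chosen from 2 placode-enriched single-cell libraries by the counts themselves. A cell needed 1 or more Sox9 UMIs (unique molecular identifiers, each marking 1 captured RNA molecule), 0 Shh UMIs, and a sum of Krt1, Krt10 and Krtdap, keratinocyte differentiation genes, under 5 per 10000 UMIs. A placode score, the sum of Dkk4, Edar, Fgf20, Bmp2 and Ltb per 10000 UMIs, then put a cell inside (score 4 or more) or outside (score under 2). This gave 769 cells of the 3082 in both libraries and of 4683 in the whole series. The inside class held 131 of them (73 and 58 in placode-enriched libraries 1 and 2) and the outside class held 638 (303 and 335). Inside and outside are thus ranges of a score, not places in the skin.

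All libraries came from wild-type C57BL/6JOlaHsd embryos at E14.5 (days of embryonic development). Per the labels' protocols, dorsal skin epithelium was freed from mesenchyme with Dispase II, sheets from 3 to 4 littermates were pooled for each sample, and TrypLE made single cells that were stained for MAdCAM-1, an adhesion molecule. Live cells were sorted either as MAdCAM-1+ placode-enriched cells (2 libraries, biological replicates per the series design) or as total epithelium (1 library), and all were made with 10x Genomics 3′ version 2 chemistry. Both Sox9 classes of a library therefore came from the same pooled litter, the same MAdCAM-1+ gate and the same droplet run.

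A hair placode is a thickening of the embryonic epidermis from which a hair follicle grows, formed under Wnt, ectodysplasin and Fgf signals. Sox9 is a high-mobility-group transcription factor known in the skin for the follicle stem cell lineage and the outer root sheath. In the young placode, Shh marks cells of the placode itself, while Sox9 is known from cells that lie farther from the dermis and that seed the later stem cell pool. Hedgehog signalling is read out by Ptch1 and Gli1, a receptor and an effector.

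The 3 libraries held 1511, 1571 and 1601 cells, the last number being total epithelium, with 34900788, 38645840 and 36924284 UMIs in all and a median of 21652, 23419 and 21977 UMIs per cell. A caller of doublets, droplets with more than 1 cell, marked 7, 4 and 11 cells (0.463%, 0.255% and 0.687%). The pairs of libraries shared 2, 1 and 1 cell barcodes. The summed UMIs behind the values were 1573861 and 1322531 in Sox9+ inside cells and 7138011 and 8903326 in Sox9+ outside cells. A level is given in CPM, UMIs of a gene in the summed cells, scaled to 1000000 UMIs in all, and where a class has a pair of values they are those of placode-enriched libraries 1 and 2 in that order.

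The Sox9 gene lies on chromosome 11, 112782224 to 112787760 on the plus strand of GRCm38, and is protein coding. Of the 1511 and 1571 cells, 657 and 665 had a Sox9 UMI. Of those, 164 and 190 were set aside for a Shh UMI and 36 and 32 for the keratin sum, which left 457 and 443 cells. Between the classes (score 2 to under 4) lay 81 and 50 of these cells, which entered no comparison. The cells near the borders formed a continuum. The lowest scores inside were 4.09 and 4.04 and the highest between the classes 3.98 and 3.93, while the highest outside were 1.997 and 1.987. There were 23 and 14 cells with a score of 4 to under 5 and 125 and 100 with a score of 1 to under 2.

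Sox9 itself, which chose the cells, stood at 82.6 and 114 CPM inside, against 97.2 and 102 CPM outside. The class ranges overlapped, since library 1 had less Sox9 inside than outside and library 2 had more. Most inside cells of library 1 had a single Sox9 UMI (50 of 73, against 23 of 58 in library 2), while outside 155 of 303 and 135 of 335 cells had a single one. Over all cells without Shh and under the keratin limit, with or without Sox9, the Sox9 level ran from 39.0 and 47.5 CPM at a score under 1 through 55.7 and 59.8 CPM at 1 to under 2 to 17.9 and 32.3 CPM at 10 or more. Library 2 had its lowest level at a score of 6 to under 10, with 29.0 CPM, and library 1 at 10 or more. In the total epithelium library the ends lay in the other order. Its Sox9 level was 8.88 CPM at a score under 1 (25 of 193 cells with a Sox9 UMI). At 10 or more it was 63.3 CPM, from only 8 cells, 5 of them with a Sox9 UMI.

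**Figure D1:**
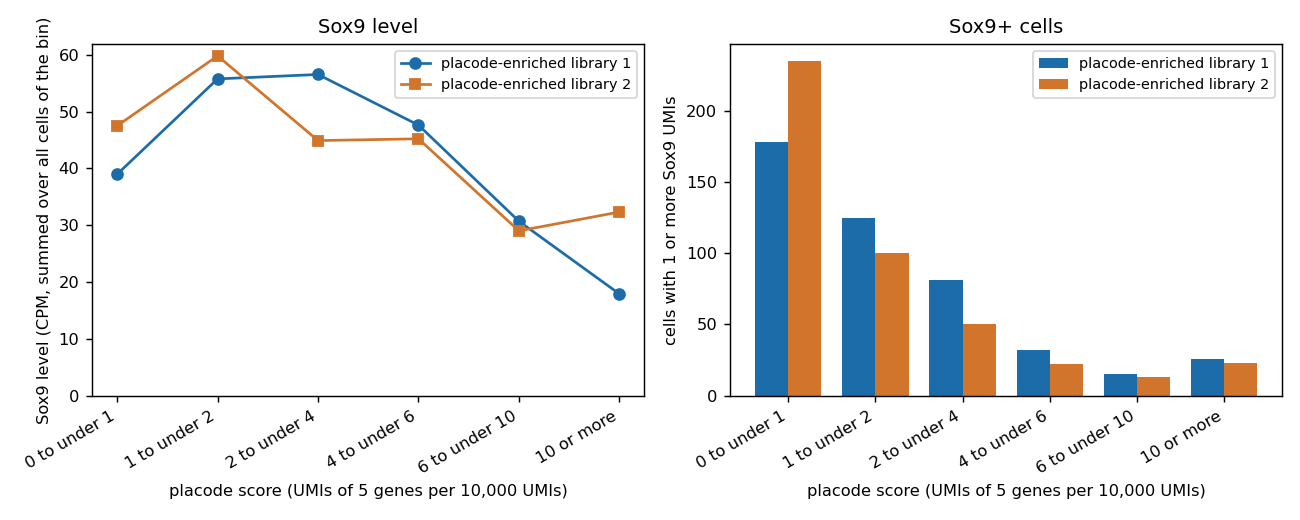
Left, Sox9 level (CPM) by placode score (per 10000 UMIs) over all cells without Shh and under the keratin limit, 1 line per placode-enriched library; right, the number of Sox9+ cells in each score bin as bars. Most Sox9+ cells sat at scores under 2 (303 and 335 cells), and the Sox9 level at a score of 10 or more was 17.9 and 32.3 CPM.

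The score genes describe the choice and carry no test. Dkk4, a secreted Wnt antagonist, stood at 367 and 326 CPM inside and at 18.9 and 11.3 CPM outside. Edar, the ectodysplasin receptor, stood at 104 and 98.3 CPM inside and at 26.5 and 22.8 CPM outside. Ltb, lymphotoxin beta, stood at 482 and 499.8 CPM inside and at 23.1 and 20.2 CPM outside. Fgf20 had 50.8 and 65.8 CPM inside and 1.54 and 2.36 CPM outside, and Bmp2 had 79.4 and 90.0 CPM inside and 12.7 and 11.9 CPM outside.

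Some of these values go against reading the outside class as free of placode transcript. A score of 0 was found in 56 of the 303 and 70 of the 335 outside cells. In the ungated total epithelium library, Sox9+ outside cells were chosen by the same limits. They had less Edar (7.07 CPM, 5 UMIs), Dkk4 (7.07 CPM, 5 UMIs) and Ltb (4.24 CPM, 3 UMIs) than the outside cells of either placode-enriched library. They had more Bmp2 (19.8 CPM, 14 UMIs), and their Fgf20 (1.41 CPM) was 1 UMI, too few to rank. Free placode RNA in the droplets and transcript made by the cells cannot be told apart here. Madcam1, which encodes the sorted antigen and is no score gene, stood at 54.0 and 34.8 CPM inside, against 15.4 and 14.0 CPM outside. It was higher inside in both libraries (log2 fold change 1.64 ± 0.18 SE, adjusted p = 3.14e-08), and in total epithelium it had 0 UMIs in the 27 Sox9+ outside cells. The words inside and outside are therefore kept for the score ranges alone.

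To ask which other transcripts go with the score among Sox9+ cells, 11207 genes were tested with edgeR's quasi-likelihood test, with Benjamini-Hochberg adjustment, on counts summed per library and class. The fit held 8 sums, since cells with 0 Sox9 UMIs chosen by the same limits were added (274 inside and 660 outside), and the library was a block. The block takes out level differences between the 2 pooled litters. The p-values therefore set class differences against their variation between these 2 libraries. The spread was estimated over all 4 classes together and moderated across genes (3 residual and 29.67 prior degrees of freedom). It also holds the sampling of few inside cells, so litter variation was not measured alone. Of the genes tested, 613 (5.47%) were higher inside and 437 (3.9%) were lower, 1050 in all (9.37%), 196 and 140 of them by more than 1 on the log2 scale, and the median over all genes was 0.01. Median depth was lower in Sox9+ inside cells (20770 and 22418 UMIs) than in Sox9+ outside cells (22948 and 25613 UMIs). With cells thinned to 10000 UMIs, 217 genes were higher and 131 lower. Genes known to accompany the score genes in placodes are not independent of the choice of cells, so their direction is no evidence of placode identity. The same limit holds for members of a pathway to which a score gene belongs. With total epithelium in the place of placode-enriched library 1 or 2, the counts were 237 or 222 higher and 185 or 148 lower, and DESeq2 called 310 and 191. The 24 genes named by size kept their calls in the fits with total epithelium and with DESeq2. Of these genes, 4 lost the call under other limits named beside them (Cxcl10, Tgfb2, Ndrg1 and Nkain3). In every comparison, genes named by size had to have the same direction in both libraries, so that agreement adds no support for them.

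Transcripts of the NF-κB pathway, through which the ectodysplasin receptor signals, were among those higher inside. That receptor's gene, Edar, and Ltb are in the score, so these transcripts are not independent of the choice of cells. Over all genes tested 5.47% were higher and 3.9% lower, and list counts of this comparison stand beside these shares. Of 19 tested members of a list of ectodysplasin and NF-κB genes, 12 were higher inside, 1 was lower and 6 did not pass, with a median log2 difference of 1.08 against 0.01 over all genes. Promoter bases are shown for 3 of those that were higher, because they hold a κB-type motif, GGG, then 3 bases of any kind (NNN), then TTCC, on either strand. These are the 250 bases before a RefSeq start of each gene in GRCm38.p6 (for Tnfaip3, the first of 2 starts with a match), all on the minus strand, written 5′ to 3′ along the gene with the motif in capitals. Their positions are chr5:92348890-92349139 for Cxcl10, chr10:19015411-19015660 for Tnfaip3 and chr12:55492648-55492897 for Nfkbia.
Cxcl10: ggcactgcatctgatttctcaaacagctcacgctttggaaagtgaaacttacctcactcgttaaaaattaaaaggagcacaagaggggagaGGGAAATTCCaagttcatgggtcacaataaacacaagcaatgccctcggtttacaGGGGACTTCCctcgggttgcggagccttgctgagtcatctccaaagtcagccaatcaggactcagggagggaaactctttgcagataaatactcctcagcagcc
Tnfaip3: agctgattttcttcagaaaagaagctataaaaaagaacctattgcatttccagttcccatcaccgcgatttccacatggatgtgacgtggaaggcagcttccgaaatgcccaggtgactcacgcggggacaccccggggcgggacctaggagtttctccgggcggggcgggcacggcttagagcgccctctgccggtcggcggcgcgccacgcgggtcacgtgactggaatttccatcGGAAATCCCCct
Nfkbia: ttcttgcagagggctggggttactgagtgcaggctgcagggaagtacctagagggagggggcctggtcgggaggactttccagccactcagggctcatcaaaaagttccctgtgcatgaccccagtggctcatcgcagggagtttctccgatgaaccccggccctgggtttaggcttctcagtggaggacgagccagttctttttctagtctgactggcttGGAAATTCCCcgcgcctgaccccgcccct

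Counted from the start, the matches begin at -159 and -104 in Cxcl10, on the gene's own strand, at -12 in Tnfaip3 and at -29 in Nfkbia, both on the other strand. In Tnfaip3 there was a further match at 33 after the same start, and the other start had 1 at -90 on the gene's own strand. In windows from 250 bases before to 50 after a start, the motif was present in 5 of the 9 list members higher inside that had an entry (Cxcl10, Nfkb2, Nfkbia, Tnfaip3 and Tnip1) and in 1 of the 5 others with an entry (Nfkbie). Among all genes tested, 652 of 8548 with an entry (7.63%) held it, and 1825 of the 32851 promoters kept (5.56%). Before counting, any entry of a member higher inside on 1 chosen chromosome was left out, a step not applied to other genes. A match describes letters only.

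Nfkbia, the inhibitor that NF-κB itself induces, stood at 334 and 444 CPM inside, against 186 and 187 CPM outside. Its inside and outside sums did not overlap (log2 fold change 1.08 ± 0.07 SE, adjusted p = 6.66e-14). Here and below, a lack of overlap between 2 sums per class is a description only. Its share over all genes was not counted. Tnfaip3, a deubiquitinase that restrains NF-κB, had 26.7 and 14.4 CPM inside and 3.64 and 3.82 CPM outside. It too was higher inside in both libraries (log2 fold change 2.45 ± 0.30 SE, adjusted p = 1.62e-07). Relb, a subunit of the noncanonical pathway, had 64.2 and 63.5 CPM inside and 21.4 and 17.0 CPM outside, with no overlap (log2 fold change 1.76 ± 0.14 SE, adjusted p = 2.97e-11). Nfkb2 (1.45 ± 0.18), Birc3 (1.48 ± 0.21) and Icam1 (1.18 ± 0.13), a partner subunit, an inhibitor of apoptosis and an adhesion molecule, were also higher, as log2 differences with their SE. The member lower inside was Fst, follistatin, an inhibitor of activins and Bmps, with 33.7 and 28.7 CPM inside and 75.2 and 67.4 CPM outside (log2 fold change -1.15 ± 0.17 SE, adjusted p = 9.27e-06).

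Cxcl10, a chemokine, had the largest difference among the genes with 20 CPM or more in the higher class, and it rested on few cells. It stood at 3.81 and 39.3 CPM inside, against 0.700 and 0.449 CPM outside (log2 fold change 5.17 ± 0.61 SE, adjusted p = 7.81e-08). In library 2 a single cell held 38 of the 52 inside UMIs (73.1%), and only 3 of 58 cells had any. In library 1 there were 6 UMIs in 5 cells. With 2 or more Sox9 UMIs asked of each Sox9+ cell, the call was lost.

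The genes with the largest rise inside included regulators of several pathways. Ascl4, a basic helix-loop-helix factor, had 36.9 and 43.9 CPM inside and 7.99 and 7.53 CPM outside. Its 4 sums did not overlap (log2 fold change 2.40 ± 0.19 SE, adjusted p = 2.37e-11). Lrp4, a receptor that tunes Wnt signalling and binds the antagonist encoded by Sostdc1, had 129 and 112 CPM inside and 33.9 and 29.9 CPM outside. It was likewise higher in both libraries (log2 fold change 1.94 ± 0.11 SE, adjusted p = 4.16e-15). Plpp3, a phospholipid phosphatase, stood at 48.3 and 56.7 CPM inside, against 12.05 and 12.5 CPM outside (log2 fold change 2.12 ± 0.17 SE, adjusted p = 3.68e-11).

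The other genes of this group rose by log2 differences of 1.82 to 2.25. They were the syntaxin gene Stx11 (2.25 ± 0.28), Cyfip2 (2.13 ± 0.25), a subunit of the WAVE complex that drives actin branching, Mical2 (2.03 ± 0.23), which oxidises actin, Nkain3 (1.98 ± 0.26), the membrane protein gene Tmem100 (1.91 ± 0.19), Tgfb2 (1.91 ± 0.28), a transforming growth factor, and the pseudokinase gene Trib1 (1.82 ± 0.17). Cyfip2 differed between the libraries, with 17.8 and 46.1 CPM inside and 5.18 and 9.43 CPM outside, but was higher inside in both. The Nkain3 call was lost when cells were thinned to 10000 UMIs, and the Tgfb2 call was lost with 2 or more Sox9 UMIs per cell.

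Known placode genes that the score did not use went with it. Of 15 tested, 13 were higher inside, Smoc2 did not pass, and Sostdc1 was lower. Lhx2, a LIM homeobox factor of hair follicle precursors, had 12.7 and 12.9 CPM inside and 3.08 and 3.71 CPM outside (log2 fold change 1.94 ± 0.33 SE, adjusted p = 5.09e-05). Trps1, a zinc finger repressor needed for hair, had 108 and 138 CPM inside and 46.2 and 54.8 CPM outside (log2 fold change 1.30 ± 0.10 SE, adjusted p = 1.94e-11). Both were higher inside in each library. Sp5, a Wnt target, stood at 6.99 and 12.9 CPM inside, against 0.700 and 1.35 CPM outside (log2 fold change 3.26 ± 0.46 SE, adjusted p = 3.55e-06). That difference rested on 6 of 73 and 6 of 58 inside cells with a UMI, and with inside cells limited to scores of 4 to under 10 it was -0.88. Sostdc1, a secreted Wnt and Bmp antagonist, had 515 and 411 CPM inside and 1045 and 916 CPM outside, and its lower inside values did not overlap those outside (log2 fold change -1.05 ± 0.04 SE, adjusted p = 2.83e-19).

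**Figure D2:**
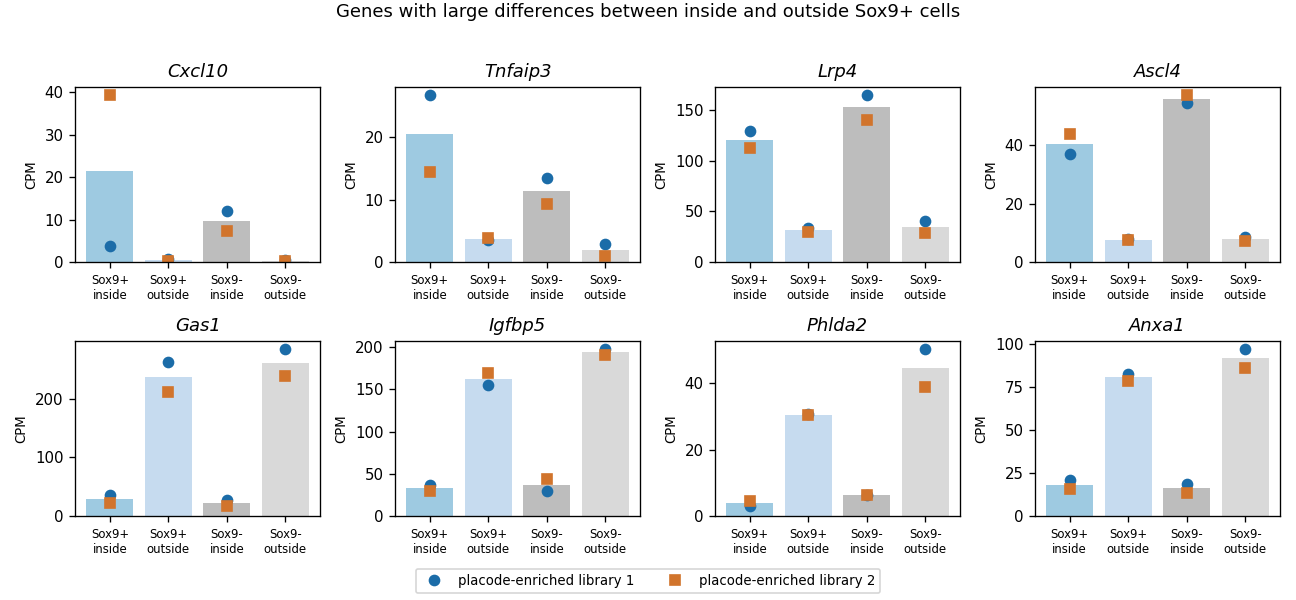
Levels (CPM) of 8 genes in Sox9+ inside, Sox9+ outside, Sox9- inside and Sox9- outside cells; bars are the mean of both placode-enriched libraries and points are the single libraries. Cxcl10, Tnfaip3, Lrp4 and Ascl4 were higher inside than outside among Sox9+ cells, and Gas1, Igfbp5, Phlda2 and Anxa1 were lower.

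Wnt ligands split. Of 13 tested ligands and secretion genes, 3 were higher inside, 5 were lower and 5 did not pass. Wnt10b, a ligand known from placodes, had 24.1 and 28.7 CPM inside and 12.3 and 11.9 CPM outside (log2 fold change 1.13 ± 0.23 SE, adjusted p = 0.000654), and its sums did not overlap. Wnt3 (0.64 ± 0.11) and Wnt10a (0.55 ± 0.14) were also higher. Wnt4 had 73.1 and 41.6 CPM inside and 151 and 123 CPM outside (log2 fold change -1.22 ± 0.11 SE, adjusted p = 5.96e-10), and Wnt7b had 31.1 and 21.2 CPM inside and 81.4 and 68.9 CPM outside (log2 fold change -1.48 ± 0.15 SE, adjusted p = 2.64e-09). Both were lower inside in each library, as was Wls (-0.79 ± 0.08), the carrier that brings Wnt ligands to the cell surface. Wnt3a (-2.20 ± 0.39) and Wnt6 (-0.21 ± 0.05) completed the group that fell.

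Of 28 Wnt receptors, inhibitors and targets, 12 were higher inside and 3 were lower. Wif1, a secreted factor that binds Wnt ligands, had 152 and 144 CPM inside and 57.0 and 61.4 CPM outside, with no overlap (log2 fold change 1.35 ± 0.10 SE, adjusted p = 7.22e-13). Lef1, a DNA-binding partner of beta-catenin, had 277 and 211 CPM inside and 159 and 141 CPM outside (log2 fold change 0.74 ± 0.07 SE, adjusted p = 2.19e-09). Ctnnb1, which encodes beta-catenin, was higher as well (0.66 ± 0.03). Axin2, a common read-out of Wnt activity, did not pass, with 19.7 and 15.1 CPM inside and 18.5 and 18.8 CPM outside (log2 fold change -0.05 ± 0.22 SE, adjusted p = 0.937).

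Most hedgehog pathway genes did not pass with the score. Gas1, a co-receptor for Shh on the cell surface, had the smallest p of the 24 genes named by size. It stood at 36.2 and 22.7 CPM inside, against 263 and 210.5 CPM outside, and both inside sums lay far under both outside sums (log2 fold change -2.96 ± 0.11 SE, adjusted p = 1.31e-19). Ptch1, the main receptor and a target of the pathway, had 71.2 and 80.9 CPM inside and 84.1 and 89.1 CPM outside and did not pass (log2 fold change -0.17 ± 0.11 SE, adjusted p = 0.427), and neither did Gli1 (0.27 ± 0.16).

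Gas1 and Lrp4 also followed the score in the cells on either side of the borders, which is given as a description. Among Sox9+ cells Gas1 had 304 and 245 CPM at a score under 1, 199.5 and 119.8 CPM at 1 to under 2 and 91.1 and 70.1 CPM at 2 to under 4. Lrp4 had 28.9 and 24.4 CPM at a score under 1, 41.5 and 44.5 CPM at 1 to under 2 and 67.7 and 50.4 CPM at 2 to under 4. In each library the levels were in order, Gas1 downward and Lrp4 upward, so the outside class was itself graded. Ptch1 had 82.2 and 85.7 CPM under 1, 87.0 and 97.96 CPM at 1 to under 2 and 108 and 106 CPM at 2 to under 4.

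Of 14 tested Fgf pathway genes, 6 were higher inside, 2 were lower and 6 did not pass, among them the feedback inhibitor genes Spry4, Spred1, Spred2 and Spred3. Fgf20 is in the score, so this list is not independent of the choice of cells either. Dusp6, a phosphatase induced by Fgf signals, had 589.6 and 656 CPM inside and 302 and 294 CPM outside, without overlap (log2 fold change 1.08 ± 0.06 SE, adjusted p = 1.13e-15). Etv4 (1.15 ± 0.10), an Ets factor downstream of Fgf receptors, and Fgfr1 (0.60 ± 0.14) rose with it. Of 21 Bmp and Tgf beta genes, 3 were higher and 2 lower, and Tgfb1 had 73.7 and 92.2 CPM inside and 32.6 and 35.4 CPM outside (log2 fold change 1.30 ± 0.13 SE, adjusted p = 3.07e-09). Of 11 Notch genes, Notch1 alone passed, with 28.0 and 43.1 CPM inside and 56.3 and 71.2 CPM outside (log2 fold change -0.83 ± 0.14 SE, adjusted p = 6.76e-05). The Notch count was near the share of all genes tested that passed in either direction (9.37%).

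Among 35 genes of axon and cell guidance, 11 were higher inside and 2 were lower. Nrp2, a receptor for semaphorins, had 62.9 and 77.1 CPM inside and 19.8 and 20.7 CPM outside, with no overlap (log2 fold change 1.81 ± 0.16 SE, adjusted p = 1.63e-10). Robo2 (2.09 ± 0.35) and Robo1 (1.31 ± 0.19), receptors for Slit ligands, and the semaphorin genes Sema3d (1.35 ± 0.15) and Sema6a (1.31 ± 0.15) were among the others that rose.

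Of 32 transcription factors of follicle and epidermal fate, 16 were higher inside and 5 lower. Of 8 tested Sox genes other than Sox9, Sox2, Sox11, Sox21 and Sox4 were higher and 4 did not pass. Sox4, a factor of embryonic progenitors, had 1029 and 916 CPM inside and 621 and 547 CPM outside (log2 fold change 0.76 ± 0.03 SE, adjusted p = 1.16e-17). Sox11, its close relative, had 44.5 and 82.4 CPM inside and 27.3 and 22.9 CPM outside (log2 fold change 1.35 ± 0.17 SE, adjusted p = 4.69e-07), and both genes were higher in each library. Sox2 stood low, at 6.99 and 3.02 CPM inside and 0.981 and 0.674 CPM outside (log2 fold change 2.57 ± 0.63 SE, adjusted p = 0.00551). Gata6, known from the upper follicle and its ducts, had 8.90 and 6.81 CPM inside and 0.841 and 0.786 CPM outside (log2 fold change 3.26 ± 0.58 SE, adjusted p = 0.000134).

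Genes of basal and differentiating epidermis were lower inside. Of 12 basal genes, 9 were lower and 3 did not pass. Krt15 had 453 and 266 CPM inside and 981 and 911 CPM outside, with all inside values under those outside (log2 fold change -1.35 ± 0.07 SE, adjusted p = 7.21e-17). Krt5 had 601 and 529 CPM inside and 1026 and 1031 CPM outside (log2 fold change -0.83 ± 0.04 SE, adjusted p = 2.32e-16), and Krt14 differed less (-0.23 ± 0.03). Igfbp5, which binds insulin-like growth factors, had 37.5 and 30.2 CPM inside and 156 and 169.6 CPM outside, again without overlap (log2 fold change -2.22 ± 0.13 SE, adjusted p = 6.98e-15). Anxa1, an annexin, had 21.0 and 15.9 CPM inside and 82.9 and 78.7 CPM outside (log2 fold change -2.10 ± 0.16 SE, adjusted p = 5.51e-12).

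Of 15 tested suprabasal genes, 8 were lower inside and 7 did not pass, and the keratin limit of the rule had already removed the most differentiated cells. Their summed level over the whole list was 487 and 563 CPM inside and 969.7 and 921 CPM outside. Klf5, a factor of epidermal differentiation, had 18.4 and 25.7 CPM inside and 60.5 and 73.9 CPM outside (log2 fold change -1.59 ± 0.17 SE, adjusted p = 1.26e-08). Grhl3, a barrier factor, had 7.62 and 4.54 CPM inside and 22.8 and 21.0 CPM outside (log2 fold change -1.80 ± 0.28 SE, adjusted p = 1.34e-05), and Zfp750 was lower too (-2.17 ± 0.39). The sums of these genes did not overlap between the classes.

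The named genes that fell most further included Phlda2, an imprinted growth regulator, which had 3.18 and 4.54 CPM inside and 30.8 and 30.3 CPM outside (log2 fold change -2.99 ± 0.31 SE, adjusted p = 7.14e-09). Other members of that group were the endothelin gene Edn2 (-2.86 ± 0.35), the aquaglyceroporin gene Aqp3 (-2.55 ± 0.31), the stress-induced Ndrg1 (-2.50 ± 0.33), the annexin gene Anxa8 (-2.31 ± 0.28), the calmodulin-like Calm4 (-2.01 ± 0.25) and Ackr3 (-1.92 ± 0.30), a scavenging chemokine receptor. Ackr3 varied between libraries, with 10.8 and 1.51 CPM inside, the second value being 2 UMIs, against 29.8 and 20.3 CPM outside. Ndrg1 lost its call when cells were thinned.

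Adhesion, matrix and cytoskeletal genes moved in both directions, as did all genes tested (5.47% higher and 3.9% lower). Of 24 junction genes, 4 were higher inside and 6 lower. Cdh3, P-cadherin, had 132 and 139 CPM inside and 96.5 and 93.7 CPM outside (log2 fold change 0.54 ± 0.09 SE, adjusted p = 3.02e-05). Cdh1, E-cadherin, had 33.7 and 23.4 CPM inside and 59.3 and 46.5 CPM outside (log2 fold change -0.84 ± 0.16 SE, adjusted p = 0.000371). These classic cadherins thus passed in opposite directions, each with no overlap between classes. Of 33 basement membrane and integrin genes, 4 were higher and 6 lower. Fn1, fibronectin, had 76.2 and 64.3 CPM inside and 27.5 and 30.2 CPM outside (log2 fold change 1.33 ± 0.14 SE, adjusted p = 1.03e-08), and Frem1, a matrix protein at the epithelial base, had 54.6 and 55.2 CPM inside and 25.5 and 23.6 CPM outside (log2 fold change 1.20 ± 0.15 SE, adjusted p = 3.83e-07). Of 29 actomyosin genes, 6 passed in each direction, among them Cnn3 (0.91 ± 0.09), an actin-binding calponin, and Tpm1 (-0.82 ± 0.08), a tropomyosin.

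**Figure D3:**
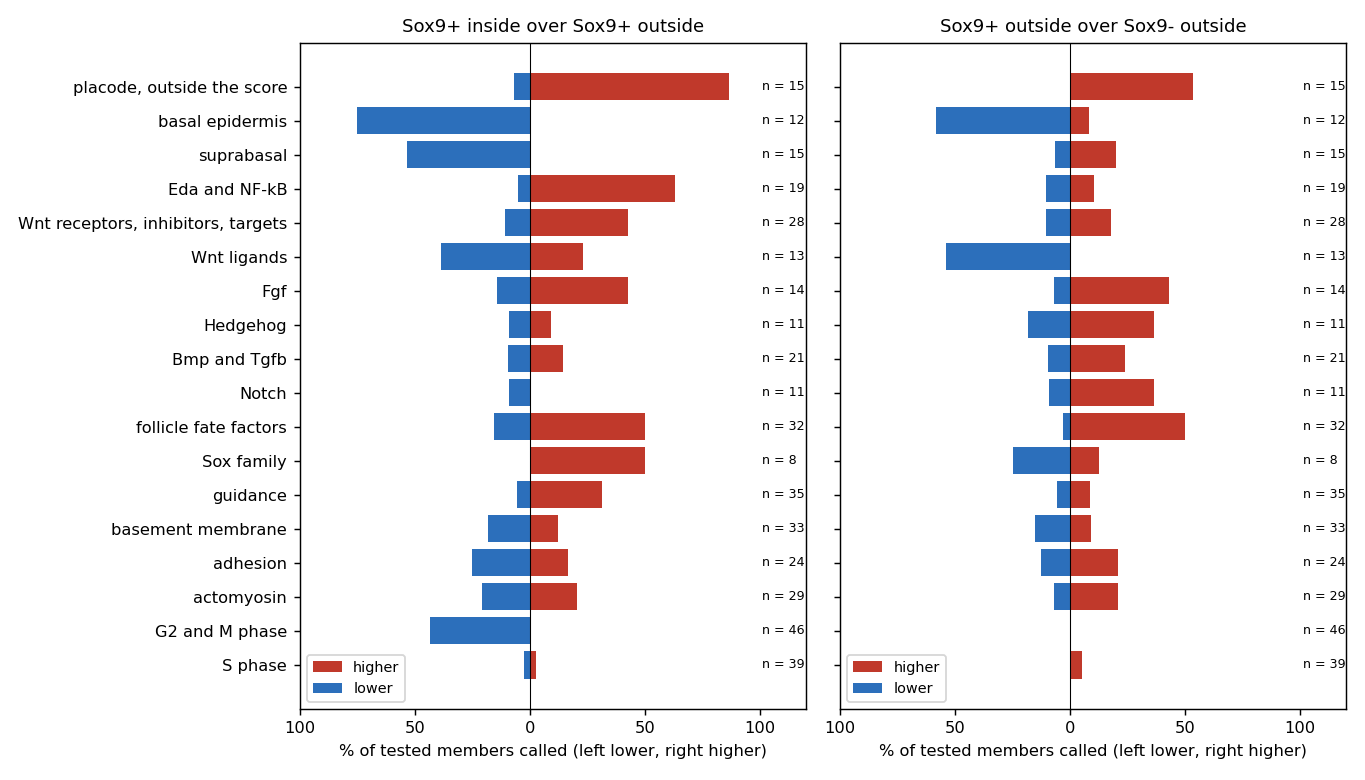
Percent of tested members of each gene list that passed the test, higher or lower, for Sox9+ inside against Sox9+ outside cells and for Sox9+ outside against Sox9- outside cells. In the first comparison 20 of 46 G2/M genes and 9 of 12 basal genes were lower, and in the second 7 of 13 Wnt ligand and secretion genes were lower.

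Part of the mitotic genes were lower inside. Of 46 genes of the G2 and M phases, 20 were lower and 26 did not pass, with summed levels of 6936 and 6598 CPM inside and 8352 and 8522 CPM outside. Ube2c, a ubiquitin enzyme of mitotic exit, had 334 and 318 CPM inside and 480.0 and 526 CPM outside (log2 fold change -0.60 ± 0.06 SE, adjusted p = 7.55e-10). Cdk1, the mitotic kinase, had 182 and 180.0 CPM inside and 268 and 272 CPM outside (log2 fold change -0.55 ± 0.07 SE, adjusted p = 1.12e-07), and both genes were lower inside in each library. Cenpf, Cdc20, Hmmr and Ect2 were also lower but lost their calls when cells were thinned. Of 39 S phase genes, 1 was higher and 1 lower, under the shares over all genes tested (5.47% and 3.9%). The summed levels of the S phase genes were 4148 and 3664 CPM inside and 3999 and 3607 CPM outside. Btg1, an antiproliferative gene, had 863 and 855 CPM inside and 468 and 473 CPM outside (log2 fold change 0.90 ± 0.04 SE, adjusted p = 1.16e-17). In sums over cells, fewer dividing cells and less transcript per cell cannot be told apart.

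Markers of other cell types were summed to see what moved with the classes. The fibroblast list had 1134 and 1172 CPM inside and 804 and 697 CPM outside, and 3 of its 4 tested genes (Lum, Postn and Dcn) were higher inside. Dcn had 759 and 833 CPM inside and 550.0 and 506 CPM outside (log2 fold change 0.61 ± 0.05 SE, adjusted p = 3.1e-11), while Pdgfra and Twist2, defining genes of dermal fibroblasts, had 0 UMIs in all 4 sums. The immune list was higher inside through Cd74 (0.94 ± 0.11), with summed levels of 102 and 104 CPM inside and 59.1 and 50.9 CPM outside. The part of these transcripts in the results was not tested. The periderm list had 140.4 and 118 CPM inside and 145 and 142 CPM outside, and 2 of its 9 tested genes were lower. Endothelial, muscle and erythroid lists had 0 tested members and summed to at most 3.18 CPM in any of these 4 sums.

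Sox9 is also the master factor of cartilage, so chondrocyte genes were read in the same sums. The chondrocyte list summed to 19.7 and 26.5 CPM inside and 26.3 and 27.9 CPM outside, of which 1 gene, Sox6, was tested and did not pass. Col9a2, Col11a2 and Hapln1, genes of cartilage matrix, had 0 UMIs in all 4 Sox9+ sums. Schwann cell genes had 15.2 and 19.7 CPM inside and 19.5 and 20.8 CPM outside, and melanoblast genes 2.54 and 7.56 CPM inside and 0.981 and 1.24 CPM outside. Immediate-early and heat shock genes, which rise on dissociation, summed to 3288 and 2994 CPM inside and 3269.5 and 2939 CPM outside. These sums were close, but single members differed. Of 19 tested, 6 were higher inside (Egr1, Socs3, Ier3, Junb, Jund and Ier2) and 2 lower (Fos and Hsp90aa1). Over all genes tested 5.47% were higher and 3.9% lower.

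The second question was which genes go with a Sox9 UMI where the placode score was low. Sox9+ outside cells (303 and 335) were set against Sox9- outside cells (322 and 338), which had 0 Sox9 UMIs and otherwise met the same limits. A cell with 0 UMIs may still have made Sox9, and median depth was lower in Sox9+ outside cells, 22948 and 25613 UMIs, against 24879 and 27056.5 UMIs in Sox9- outside cells. In this comparison 388 genes (3.46%) were higher in Sox9+ outside cells and 395 (3.52%) were lower, 783 in all (6.99%), 69 and 32 of them by more than 1 on the log2 scale, and the median over all genes was 0.00. Without the library block these counts were 85 and 34, with DESeq2 103 and 53, and with total epithelium in the place of library 1 or 2 they were 105 or 81 higher and 55 or 47 lower. The Sox9+ outside sums are shared with the comparison above. List counts of this second comparison stand beside the 3.46% higher and 3.52% lower over all genes tested.

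Wif1 had the largest difference among the named genes, at 57.0 and 61.4 CPM in Sox9+ outside cells, against 19.1 and 16.7 CPM in Sox9- outside cells. The classes did not overlap (log2 fold change 1.70 ± 0.09 SE, adjusted p = 3.57e-15). Ncam1, a neural cell adhesion molecule, had 72.6 and 75.8 CPM in Sox9+ outside cells and 26.6 and 25.5 CPM in Sox9- outside cells. It was higher in both libraries (log2 fold change 1.48 ± 0.08 SE, adjusted p = 3.57e-15). Between Sox9+ inside and outside cells Ncam1 did not pass (log2 fold change 0.11 ± 0.11 SE, adjusted p = 0.641). Pthlh, a parathyroid hormone-like signal, had 75.0 and 58.9 CPM in Sox9+ outside cells and 26.0 and 21.7 CPM in Sox9- outside cells (log2 fold change 1.45 ± 0.09 SE, adjusted p = 9.68e-14). Bdnf, a neurotrophin, had 65.1 and 65.8 CPM in Sox9+ outside cells and 27.4 and 24.6 CPM in Sox9- outside cells (log2 fold change 1.31 ± 0.08 SE, adjusted p = 9.68e-14). Each of these was higher with Sox9 in both libraries.

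Fgfr1 (1.22 ± 0.11), the semaphorin receptor gene Nrp2 (1.31 ± 0.16), the ceramide synthase gene Cers4 (1.24 ± 0.10) and Calm4 (1.21 ± 0.12) were the other named genes that rose. Calm4 had 44.8 and 43.1 CPM in Sox9+ outside cells and 16.6 and 20.4 CPM in Sox9- outside cells. Of the 15 other placode genes, 8 were higher in Sox9+ outside cells and 7 did not pass. The score itself had medians of 0.811 and 0.611 in Sox9+ outside cells and 0.751 and 0.513 in Sox9- outside cells. Its 5 genes differed in direction, which is given with no test. Edar stood at 26.5 and 22.8 CPM in Sox9+ outside cells and at 15.7 and 13.7 CPM in Sox9- outside cells. Dkk4 stood at 18.9 and 11.3 CPM in Sox9+ outside cells and at 22.6 and 12.7 CPM in Sox9- outside cells. Bmp2 (12.7 and 11.9 CPM with Sox9, 15.1 and 15.1 CPM without) and Fgf20 (1.54 and 2.36 CPM with Sox9, 2.04 and 2.63 CPM without) had the lower values with Sox9 in both libraries, as Dkk4 did, and Ltb had 23.1 and 20.2 CPM with Sox9 and 23.04 and 16.2 CPM without.

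Hedgehog read-outs were higher in Sox9+ outside cells, although the rule removed every cell with a Shh UMI. Ptch1, Gli1 and Gli2 were among the genes that were higher, and Cdon and Gas1 were lower. Ptch1 had 84.1 and 89.1 CPM in Sox9+ outside cells and 39.7 and 34.3 CPM in Sox9- outside cells, with no overlap (log2 fold change 1.20 ± 0.08 SE, adjusted p = 1.12e-13). Gli1, a target and effector, had 28.4 and 29.0 CPM in Sox9+ outside cells and 16.0 and 16.3 CPM in Sox9- outside cells (log2 fold change 0.80 ± 0.11 SE, adjusted p = 2.53e-06). For both Ptch1 and Gli1 the sums with Sox9 lay above those without it.

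Krt17, a keratin of embryonic skin appendages, had 943 and 754 CPM in Sox9+ outside cells and 426 and 382 CPM in Sox9- outside cells and did not overlap (log2 fold change 1.03 ± 0.03 SE, adjusted p = 6.9e-22). Between Sox9+ inside and outside cells it was higher by 0.43 ± 0.04, a value that was -0.02 with no keratin limit. Of the 14 Fgf pathway genes, 6 were higher, 1 was lower and 7 did not pass, and those higher included Dusp6 (0.85 ± 0.05) and Etv4 (0.81 ± 0.08). Of the 32 fate factors, 16 were higher in Sox9+ outside cells and 1, Lef1 (-0.31 ± 0.05), was lower. Runx1, a factor of follicle stem cells, had 12.2 and 16.1 CPM in Sox9+ outside cells and 5.64 and 5.04 CPM in Sox9- outside cells (log2 fold change 1.39 ± 0.17 SE, adjusted p = 5.5e-07).

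Several Wnt ligands were lower in Sox9+ outside cells. Of 13 tested, 7 were lower and 6 did not pass. Wnt16 had 7.85 and 7.97 CPM in Sox9+ outside cells and 22.3 and 24.2 CPM in Sox9- outside cells, with no overlap (log2 fold change -1.59 ± 0.14 SE, adjusted p = 3.15e-10). Wnt3a (-0.76 ± 0.12), Wnt10a (-0.46 ± 0.09), Wnt4 (-0.37 ± 0.05), Wls (-0.31 ± 0.04), Wnt3 (-0.31 ± 0.07) and Wnt7b (-0.30 ± 0.06) were the others. Pcsk2, a prohormone convertase, had 9.81 and 9.32 CPM in Sox9+ outside cells and 34.1 and 25.1 CPM in Sox9- outside cells (log2 fold change -1.64 ± 0.13 SE, adjusted p = 3.17e-11). Igfbp2 (-0.77 ± 0.05), Serpinb2 (-0.75 ± 0.12), Pcdh9 (-0.73 ± 0.12), Cbs (-0.71 ± 0.12) and Vcan (-0.67 ± 0.08) made up the rest of the named genes that fell. With DESeq2 the calls of Cbs, Pcdh9, Serpinb2 and Wnt3a were lost, and without the replicate block that of Vcan.

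Basal keratins were lower too. Of 12 basal genes, 7 were lower in Sox9+ outside cells and Cxcl14 was higher. Krt15 had 981 and 911 CPM in Sox9+ outside cells and 1381 and 1267 CPM in Sox9- outside cells, and the classes did not overlap (log2 fold change -0.51 ± 0.04 SE, adjusted p = 1.87e-11). Sostdc1, in contrast, had 1045 and 916 CPM in Sox9+ outside cells and 733 and 653 CPM in Sox9- outside cells and was higher (log2 fold change 0.47 ± 0.03 SE, adjusted p = 4.56e-14). The 46 G2/M genes had a median log2 difference of 0.03, against 0.00 over all genes. Of the D-type cyclins, Ccnd1 (0.60 ± 0.08) and Ccnd2 (0.11 ± 0.03) were higher, and Ccnd2 was -0.03 when cells were thinned.

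**Figure D4:**
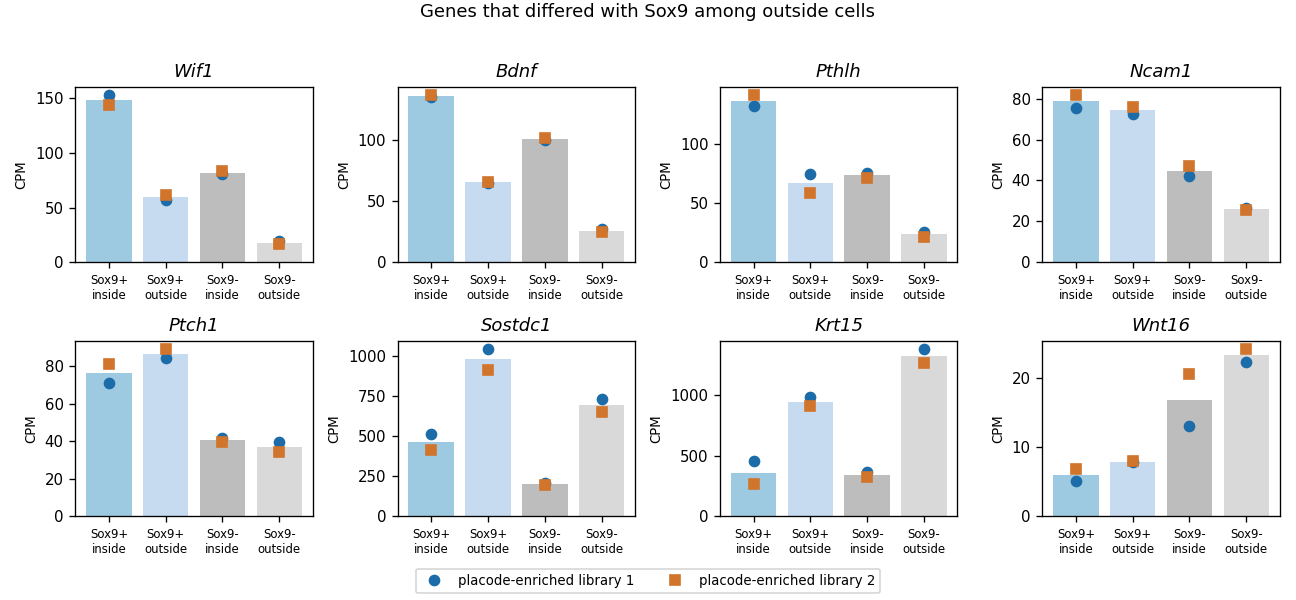
Levels (CPM) of Wif1, Bdnf, Pthlh, Ncam1, Ptch1, Sostdc1, Krt15 and Wnt16 in Sox9+ inside, Sox9+ outside, Sox9- inside and Sox9- outside cells; bars are the mean of both placode-enriched libraries and points are the single libraries. Outside, the first 6 genes were higher with a Sox9 UMI, while Krt15 and Wnt16 were lower.

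The number of Sox9 UMIs graded these genes further, given as a description since Sox9 chose the cells. Outside cells with 0 Sox9 UMIs (322 and 338 cells), with 1 (155 and 135) and with 2 or more (148 and 200) are set side by side. Ptch1 stood at 39.7 and 34.3 CPM with 0, 59.9 and 54.5 CPM with 1 and 109 and 112 CPM with 2 or more. Ncam1 stood at 26.6 and 25.5 CPM with 0, 44.1 and 50.3 CPM with 1 and 102 and 92.7 CPM with 2 or more. Krt17 stood at 426 and 382 CPM with 0, 750.4 and 563 CPM with 1 and 1139 and 881 CPM with 2 or more. All 3 were ordered by Sox9 in both libraries. Wnt16 ran the other way, at 22.3 and 24.2 CPM with 0, 13.3 and 13.3 CPM with 1 and 2.26 and 4.48 CPM with 2 or more, and so did Pcsk2, at 34.1 and 25.1 CPM with 0, 18.03 and 13.6 CPM with 1 and 1.42 and 6.53 CPM with 2 or more. Wif1 had 19.1 and 16.7 CPM with 0, 44.9 and 59.9 CPM with 1 and 69.3 and 62.5 CPM with 2 or more, and in library 2 the last 2 levels were close.

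The third question was whether the inside-outside difference itself differed between Sox9+ and Sox9- cells, tested as an interaction. Of 11207 genes, 8 (0.0714%) had a higher difference in Sox9+ cells and 25 (0.223%) a lower one. In 30 of these 33 (0.294%) the difference was smaller in size in Sox9+ cells and in 3 it was larger. These calls rest on the pairing of sums within a library. Without the replicate block edgeR called 0 genes (419 at an unadjusted p under 0.05, against 803 with the block). With placode-enriched library 1 or 2 replaced by total epithelium, 0 to 2 passed in a direction (364 and 348 unadjusted). The Sox9- inside cells also had higher placode scores, with medians of 6.86 and 7.60 in Sox9+ inside cells and 9.91 and 8.70 in Sox9- inside cells. With scores of inside cells kept at 4 to under 10, an alternative chosen after seeing the data, the medians were 5.02 and 5.71 in Sox9+ and 6.10 and 5.61 in Sox9- inside cells, all 33 genes kept their sign, and 21 kept their call.

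Among these genes, Sostdc1 differed between inside and outside by -1.05 ± 0.04 in Sox9+ cells, where it stood at 515 and 411 CPM inside and 1045 and 916 CPM outside. In Sox9- cells it stood at 207 and 194 CPM inside and 733 and 653 CPM outside. The drop was smaller with Sox9 (interaction, log2 fold change 0.70 ± 0.06 SE, adjusted p = 8.31e-09). Krt15 had a smaller drop as well, with 362 and 324 CPM in Sox9- inside cells and 1381 and 1267 CPM in Sox9- outside cells (interaction, log2 fold change 0.56 ± 0.09 SE, adjusted p = 0.000888), and so did Krt5 (interaction, log2 fold change 0.36 ± 0.06 SE, adjusted p = 0.000645). Gjb2 (0.46), Wnt6 (0.38) and Siva1 (0.29) had higher differences in Sox9+ cells too.

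Bdnf and Wif1 had their lowest levels of the 4 classes in Sox9- outside cells. Bdnf had 135 and 137 CPM in Sox9+ inside cells and 100.1 and 102 CPM in Sox9- inside cells, beside the outside values above (interaction, log2 fold change -0.92 ± 0.13 SE, adjusted p = 5.23e-05). Wif1 had 152 and 144 CPM in Sox9+ inside cells and 80.3 and 83.5 CPM in Sox9- inside cells (interaction, log2 fold change -0.89 ± 0.14 SE, adjusted p = 0.000563). Gadd45g, a growth arrest gene, had its highest level in Sox9- inside cells. It had 19.7 and 29.5 CPM in Sox9+ inside cells, 17.5 and 19.3 CPM in Sox9+ outside cells, 82.1 and 67.9 CPM in Sox9- inside cells and 19.1 and 11.7 CPM in Sox9- outside cells (interaction, log2 fold change -1.94 ± 0.25 SE, adjusted p = 1.69e-05). Of its 39 UMIs in Sox9+ inside cells of library 2, 13 came from 1 cell. Fam13a (-1.33), Alcam (-0.84) and Dmkn (-0.77) had lower differences in Sox9+ cells as well.

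**Figure D5:**
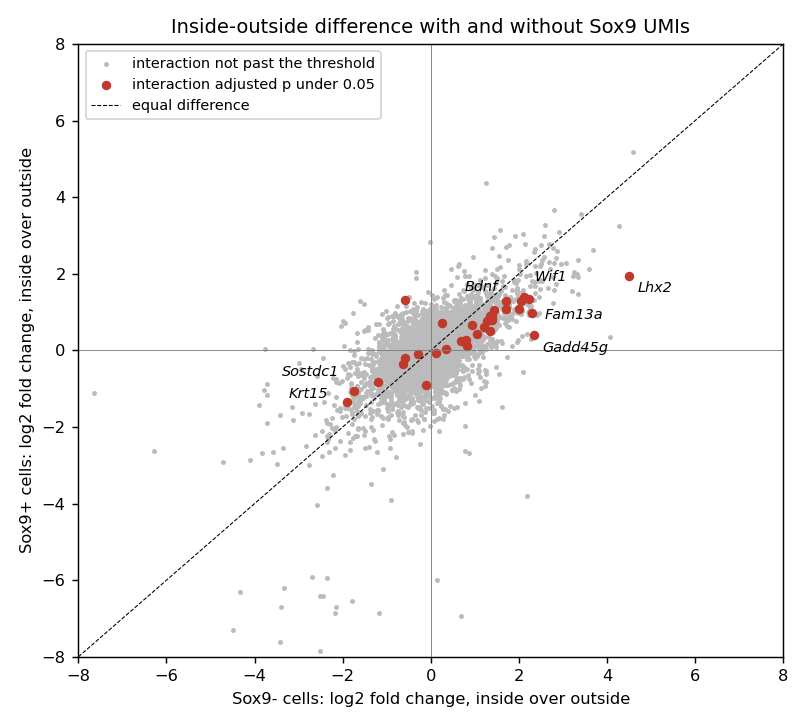
Each point is 1 of 11207 genes: the log2 difference between inside and outside cells among Sox9- cells (x axis) and among Sox9+ cells (y axis); red points passed the interaction test. Sostdc1 and Krt15 lie above the diagonal and Wif1, Bdnf and Gadd45g below it; points far below the rest are genes with a sum of 0 UMIs.

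The total epithelium library was not used to choose or test these cells, and the same limits gave 10 Sox9+ inside and 27 Sox9+ outside cells there. The keratin limit removed 221 of its 262 Sox9+ cells without Shh, and those kept lay near the limit. Their median keratin sum was 4.44 inside and 4.19 outside per 10000 UMIs, and in placode-enriched libraries 1 and 2 it was 0.753 and 0.729 inside and 1.03 and 0.851 outside. The part of this gap in the values, also where this library takes the place of another in a fit, was not tested. There is 1 library, so its values carry no test, and the intervals are exact Poisson 95% intervals that cover counting error only. Gas1 had 34.2 (14.8 to 67.4) CPM inside and 267 (230.5 to 308) CPM outside, and Lrp4 had 103 (65.7 to 153) CPM inside and 29.7 (18.4 to 45.4) CPM outside. Nfkbia had 496 (409.6 to 595) CPM inside and 171 (142 to 204) CPM outside. Among these 3 genes the intervals were apart and the directions were those of the placode-enriched libraries.

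Wif1 in total epithelium had 14.1 (6.78 to 26.0) CPM in Sox9+ outside cells and 4.94 (3.10 to 7.48) CPM in Sox9- outside cells, a level under that of both placode-enriched libraries in each class. Bdnf had 24.0 (14.0 to 38.5) CPM in Sox9+ outside cells and 3.37 (1.89 to 5.56) CPM in Sox9- outside cells, and Krt17 had 327 (286 to 372) CPM in Sox9+ outside cells and 139 (128 to 150.2) CPM in Sox9- outside cells. Of the genes with 10 or more UMIs there, 390 of 465 that were higher inside in the placode-enriched libraries were also higher inside in total epithelium (83.9%), and 333 of 391 that were lower were lower (85.2%), against 50% of all 7508 genes tested. For Sox9+ against Sox9- outside cells the shares were 270 of 345 (78.3%) and 303 of 394 (76.9%), while 51.4% of all 10567 genes were higher.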

How the data were processed

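The authors deposited raw UMI counts, whole numbers for each gene in each cell. Cell Ranger, Seurat and mm10 are named per the submitters' processing notes. Versions, gene annotation, strandedness and cell filters are not given in the sources used here, so reads of overlapping antisense genes may be shared. The number at the end of a barcode was taken as the library (a swap would change only the libraries' names), and 0 other per-sample columns were present. The tables of total epithelium and of the placode-enriched libraries held 14959 and 15900 genes. The 14656 in both were used where total epithelium entered a fit or a share of directions. Fits of the placode-enriched libraries alone were not limited to these, and 15790 genes were tested there without the low-count filter.

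Cells are not replicates, so counts were summed per library and class and fitted with edgeR 4.0.16 (R 4.3.3): quasi-likelihood test, TMM scaling, filterByExpr, library as block, 8 sums with 3 residual degrees of freedom, Benjamini-Hochberg adjustment over 11207 genes, threshold 0.05. SE is the log2 fold change divided by the root of F. The 10 genes of the rule stayed in library sizes but out of tests. Fits were tested on simulated data. Doublets were called with scrublet in scanpy 1.11.5 (Python 3.11.15, expected rate 0.05) and kept; it marked few cells, so doublets may remain.

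Named genes are the 12, 8 and 6 largest per direction in the 3 comparisons with 20 CPM or more in the highest class and the same direction in both libraries, plus up to 4 examples per list and direction and list members at 100 CPM or more. The cells' rule and the 33 gene lists were chosen with earlier results of these data known. List members named beyond this rule, among them Axin2, Ptch1, Gli1 and Ncam1 between inside and outside cells, and the genes given by score or Sox9 UMI bin were chosen after their values were seen. Some genes that the rule names are not reported here. The alternatives were DESeq2 1.42.0, its size factors, no low-count filter, no replicate block, other score, keratin and Sox9 limits, thinned cells, deep or doublet-called cells left out, total epithelium added, and each library left out. Chromosome positions follow GRCm38 (GENCODE vM21), and promoters follow RefSeq.

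The sums of a library come from the same pooled litter and droplet run, so they pair by construction. Total epithelium and placode-enriched library 1 share the number 1 by order alone and were not paired.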

Additional observations from a re-analysis of the deposited data

Results flagged for a closer look

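For 12 named genes the difference between inside and outside cells itself differed between Sox9+ and Sox9- cells by edgeR's interaction test. As log2 differences, Sox9+ minus Sox9-, the values above 0 were 0.70 for Sostdc1, 0.56 for Krt15, 0.46 for Gjb2, 0.38 for Wnt6, 0.36 for Krt5 and 0.29 for Siva1. Those under 0 were -1.94 for Gadd45g, -1.33 for Fam13a, -0.92 for Bdnf, -0.89 for Wif1, -0.84 for Alcam and -0.77 for Dmkn. Adjusted p-values ran from 8.31e-09 for Sostdc1 to 0.0411 for Siva1. Without the replicate block 0 of the 12 kept their call, and with total epithelium in the place of placode-enriched library 1 or 2, 0 and 1 (Dmkn) did.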

How the results depend on the processing

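Counts are given as higher and lower. For Sox9+ inside against outside cells (613 and 437 genes), DESeq2 called 310 and 191, the fit without the replicate block 284 and 186, 2 or more Sox9 UMIs 290 and 220, thinned cells 217 and 131, and inside scores of 4 to under 10 338 and 282. Leaving out a library, with total epithelium in its place, gave 222 to 237 and 148 to 185. For Sox9+ against Sox9- outside cells (388 and 395), DESeq2 called 103 and 53, no replicate block 85 and 34, and thinned cells 157 and 128. The lower count was 253 with total epithelium added and 259 with scores of 6 or more against under 1, and leaving out a library gave 81 to 105 and 47 to 55. For the interaction (8 and 25), DESeq2 called 2 and 13, no low-count filter 19 and 49, no replicate block 0 and 0, total epithelium added 1 and 15, 2 or more Sox9 UMIs 15 and 39, and no keratin limit 13 and 42. Its higher count was 17 with scores of 6 or more against under 1 and 3 with inside scores of 4 to under 10, and leaving out a library gave 0 to 0 and 0 to 2. The cause was not tested.

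Of 4387 alternative values of 247 gene results, 3503 kept direction and call, 690 kept direction and lost the call, 187 moved (single-library ratios) and 7 changed sign. Inside against outside, these were Krt17 at -0.0227 with no keratin limit, Sp5 at -0.88 with scores of 4 to under 10 and Vim at -0.0566 with thinned cells. Outside, Ccnd2 was -0.0320 with thinned cells and Mif 0.0129 without library 2. Cxcl14's interaction was -0.12 without library 1 and -0.0042 without library 2. Of the named genes, 24 of 24, 15 of 16 and 0 of 12 kept their calls without the replicate block. Inside sums held the fewest UMIs, which limits genes at a few CPM.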
